A study of Mus musculus with 7 samples.

Results

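The interferon response genes are a set of 37 mouse genes whose transcription is induced when a cell senses an interferon, and their levels were compared between islets of control-F2 and AE-F2 males. They were chosen by symbol, through the Ensembl identifier of each row and GENCODE M21, and the rule uses no value of these libraries. Of the 37 genes, 36 had a row among the 21899 genes in the files. Mx2 had none and was not analysed here. An average of 10 or more counts over both libraries was required for a ratio to be counted, and 34 members passed it. Mx1 and Isg15, each with a mean of 9 counts, did not.

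The islets came from C57BL/6J males of the second generation (F2). Pregnant founder dams (F0) were injected in late gestation with dihydrotestosterone in benzyl benzoate and corn oil for the androgen-exposed (AE) line, which the labels call hyperandrogenism, or with that vehicle alone for the control line. Their F1 sons, given no further exposure, were mated with wild-type females to give the F2 males, so control-F2 and AE-F2 animals differ in what their paternal grandmother received, and no F2 animal carries an engineered allele. The age of the donors, and whether islets of several animals were pooled, are not given in the sources used here. The labels list 3 control-F2 and 4 AE-F2 samples, of which replicate 1 of control-F2 and replicate 4 of AE-F2 had data here, and the other 5 were not analysed here. With 1 library per group the spread between animals could not be estimated and no test was possible. The libraries held 16285888 (control-F2) and 21278513 (AE-F2) estimated counts. Ins1 and Ins2, the insulin genes of β-cells, took 17.7% and 17.5% of them. Below, a pair of counts gives control-F2 first and AE-F2 second.

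Interferons are cytokines that a cell secretes on sensing viral nucleic acid or on immune activation. Type I and type III interferons signal through receptor-bound JAK kinases to a transcription factor complex with the subunits STAT2 and IRF9, which binds the interferon-stimulated response element (ISRE) in the promoters of its target genes. Type II interferon (interferon gamma) acts mainly through the gamma-activated site (GAS) and through IRF1. In islets this programme is best known from type 1 diabetes and from enterovirus infection of β-cells, and most of its genes are also transcribed at a low level without any infection.

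The ISRE was looked for in the promoters, as the element that most of these genes are known for. RefSeq promoters on GRCm38.p6, running from 250 bases before to 50 bases after the transcription start, were found for 26 members. The core of the ISRE was searched on both strands as GAAA, any 2 bases and GAAA again, and it was present in 16 of those 26 (61.5%), against 1079 of 27025 genes with a promoter entry (3.99%). In 13 members at least 1 match lay before the start, and 7 members held 2 or more. The matches of Ifih1, Ddx58 and Eif2ak2 all lay after the start. The GAS consensus TTCNNNGAA was present in 9 members (34.6%), against 9.55% of genes, and the match in Irf1, TTCCCCGAA, began 90 bases before its start. A match describes the sequence and is not a bound site, and on the opposite strand the ISRE core reads TTTC, any 2 bases and TTTC. The stretches below, from RefSeq and written 5′ to 3′ in the direction of transcription, show the members with 2 or more matches, the neighbouring GTPase genes Igtp and Irgm2, and Gbp2 and Rsad2, which were added after their values were seen. Capitals mark the ISRE core on either strand.
Isg15, chr4:156200855-156200916, minus strand: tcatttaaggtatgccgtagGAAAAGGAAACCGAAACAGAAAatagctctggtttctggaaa
Oas1a, chr5:120907526-120907565, minus strand: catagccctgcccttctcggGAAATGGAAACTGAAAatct
Bst2, chr8:71537567-71537622, minus strand: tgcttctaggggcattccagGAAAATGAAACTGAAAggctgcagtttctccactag
Ifit3, chr19:34583353-34583436, plus strand: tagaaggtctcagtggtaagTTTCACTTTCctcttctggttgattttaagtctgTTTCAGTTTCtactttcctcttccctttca
Ifit1, chr19:34640765-34640833, plus strand: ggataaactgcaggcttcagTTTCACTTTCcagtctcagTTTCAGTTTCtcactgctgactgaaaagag
Gbp3, chr3:142559992-142560021, plus strand: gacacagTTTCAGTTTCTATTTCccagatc
Gbp2, chr3:142620594-142620623, plus strand: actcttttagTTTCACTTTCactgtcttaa
Irgm1, chr11:48871428-48871457, minus strand: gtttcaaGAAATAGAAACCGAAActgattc
Igtp, chr11:58199502-58199551, plus strand: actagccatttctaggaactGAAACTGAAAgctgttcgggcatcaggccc
Irgm2, chr11:58214893-58214942, plus strand: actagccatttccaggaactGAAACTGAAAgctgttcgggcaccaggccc
Rsad2, chr12:26456543-26456592, minus strand: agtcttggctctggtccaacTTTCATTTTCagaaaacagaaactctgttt

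In Isg15 3 matches overlap in 1 run, and in Oas1a, Bst2, Gbp3 and Irgm1 the run holds 2. In Ifit1 and Ifit3 the 2 matches stand apart. Igtp and Irgm2, with no other protein-coding gene between them, share 48 of the 50 bases shown, the whole ISRE core included.

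**Figure D1:**
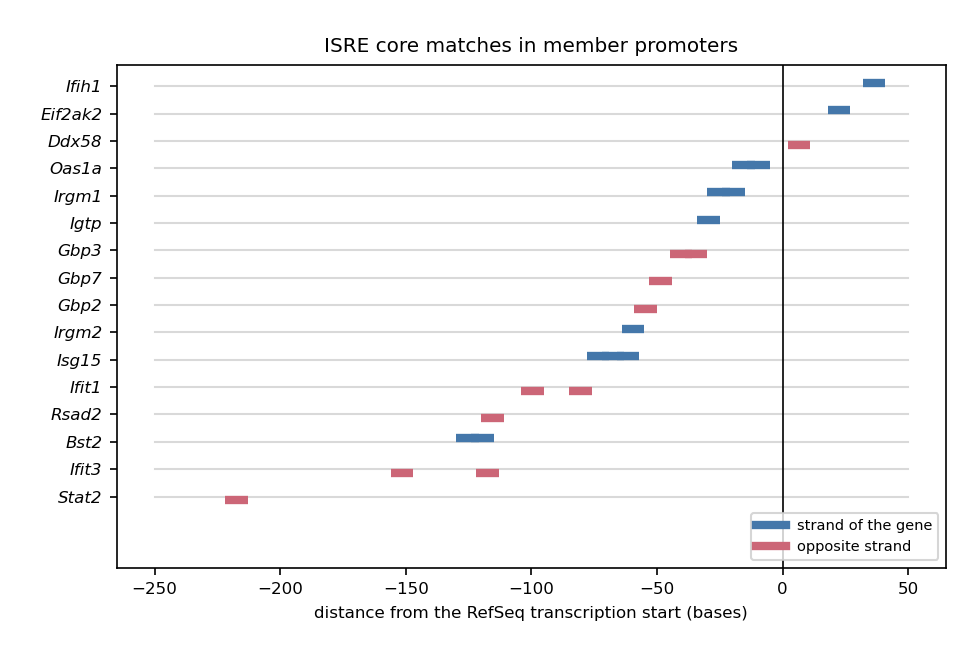
Position of each ISRE core match (coloured bar) in the promoters of the 16 members that hold one, as distance in bases from the RefSeq transcription start (vertical line), with the searched window in grey. In 13 of the 16 members a match lies before the start, and the matches of Ifih1, Eif2ak2 and Ddx58 lie after it.

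All 36 members with a row had counts in both libraries. To compare levels between genes, counts were divided by the transcript length from GENCODE M21 and scaled for depth. On this scale, here called the per-length level, the median of the 36 members was 3.78 as the mean of both libraries. The median over all genes that passed the minimum was 11.1, and the 36 include Mx1 and Isg15, which did not pass it. The highest levels were those of Trim25 (mean 23.1), which encodes a ubiquitin ligase of the RIG-I pathway, Irf1 (22.3), Ifi27 (20.1) and Cmpk2 (19.3). The lowest were those of Mx1 (0.249), Oas2 (0.296) and Zbp1 (0.590). Highest and lowest thus lay 92.5-fold apart. Mx1 is the GTPase that blocks influenza virus, and C57BL/6 mice carry a defective allele of it. Genes often read as markers of an acute interferon response were spread over this range, with per-length levels of 0.780 for Ifit2, 0.916 for Isg15, 1.64 for Ifit1, 3.85 for Rsad2 and 15.3 for Usp18. Together the members took 0.0449% of all control-F2 and 0.0464% of all AE-F2 counts.

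**Figure D2:**
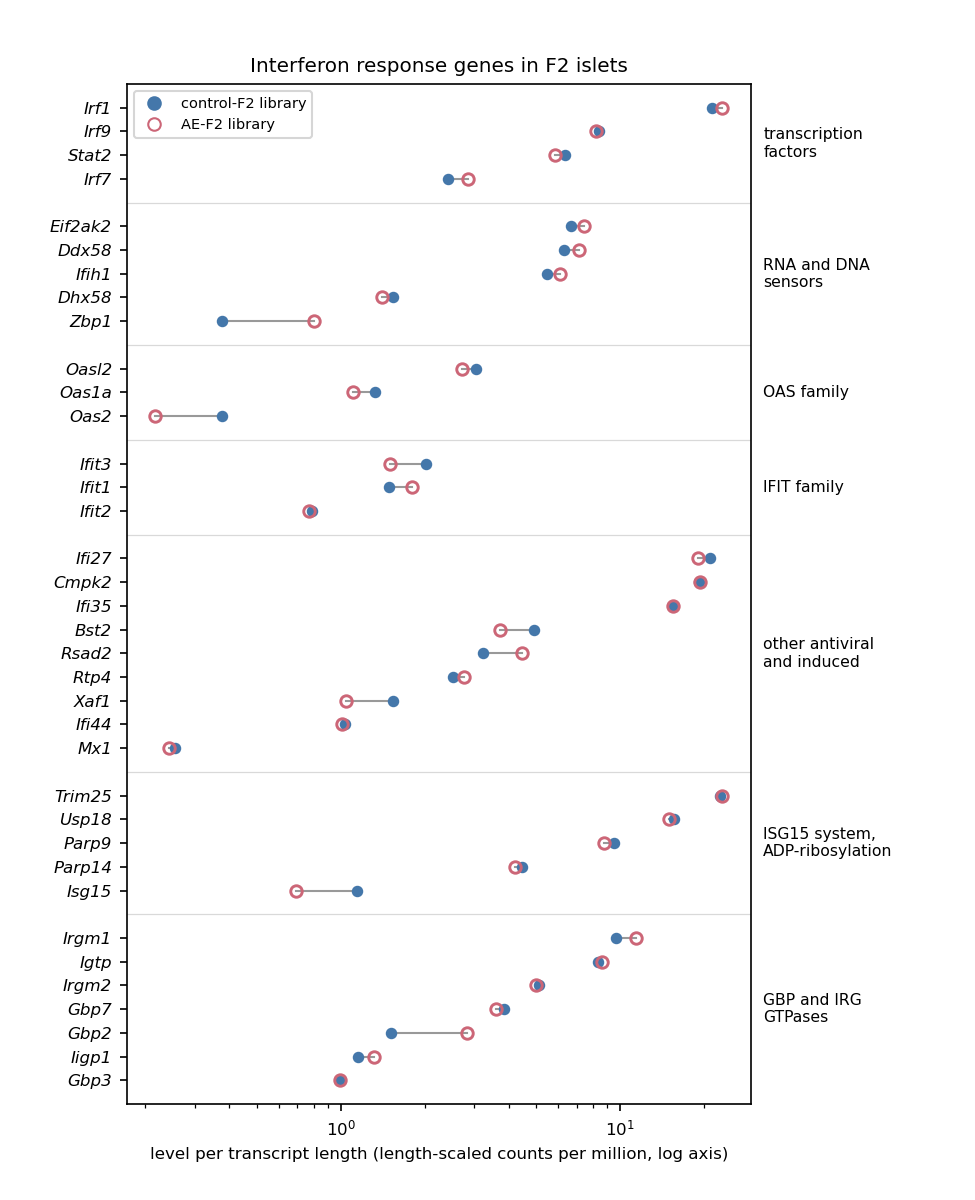
Per-length level (length-scaled CPM, log axis) of the 36 members with a row, grouped by role and ordered by level within a role, in the control-F2 library (filled) and the AE-F2 library (open). Most pairs lie close together, and the pairs of Zbp1, Gbp2 and Oas2 are the widest apart.

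The comparison asks whether the interferon programme stood at another level in islets of the AE line. The members were balanced as a group: 17 of the 34 were higher in AE-F2 and 17 lower, as 6819 of all 13627 genes were higher. Their median log2 ratio (AE-F2 over control-F2, after scaling for depth) was 0.0037, and that of all genes was 0.00024. The summed counts of the 36 members were 7306 and 9877, which after scaling is 1.04-fold higher in AE-F2 with a counting interval of 1.01 to 1.07. This interval, as every interval given here, is a 95% interval for counting error between these libraries only. It leaves out the differences between animals, and it is too narrow where PCR copies of 1 molecule were counted, since the reads carry no molecular identifiers. In whole islets, a lower count from fewer cells of a type cannot be told apart from less RNA per cell.

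For 3 members, Gbp2, Rsad2 and Irgm1, the interval lay above equality, and for 31 it included equality. None lay below it. Among all genes the interval lay above equality for 13.4% and below it for 13.4%, so that 3 of 34 (8.82%) is no more than the background. The AE-F2 level was at least 2-fold higher for 1 member, Zbp1, against 3.16% of all genes, and at least 2-fold lower for 0 members, against 0.653%. Zbp1, with 6 and 17 counts, passed the minimum only through AE-F2. At 1.5-fold, Gbp2 and Zbp1 were higher (6.04% of all genes were) and Oas2 was lower (2.19%). Low counts gave wide intervals. Among the 15 members with a mean between 10 and 100 counts, 1 interval lay above equality (6.67%, against 17.5% of genes in that range), and among the 19 with an average of 100 or more counts 2 did (10.5%, against 12.2%). The distance from the log2 ratio to the limits of its interval, averaged over both limits, had a median of 0.30 over the members and ran from 0.10 (Trim25) to 1.52 (Zbp1).

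**Figure D3:**
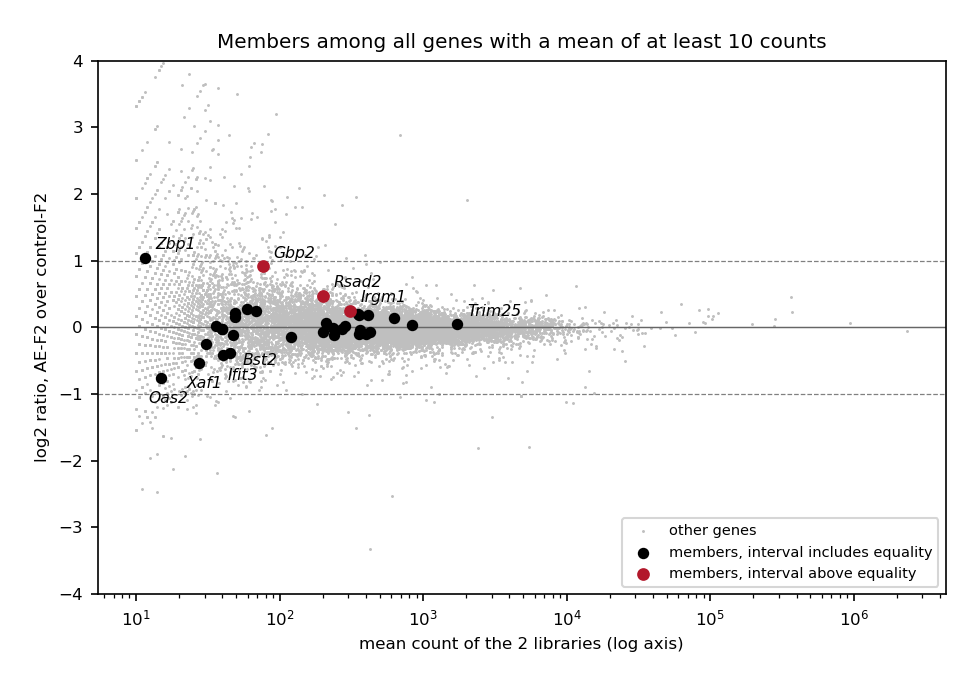
Log2 ratio of the AE-F2 over the control-F2 library against the mean count (log axis) for genes averaging 10 or more counts, with the 34 members as large points and dashed lines at 2-fold. The axis stops at 4 on either side, and 66 genes lie beyond it. The members lie within the cloud of other genes, Zbp1 alone of them past the upper dashed line and none past the lower.

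Of the transcription factors, 2 were higher and 2 lower, with a median log2 ratio of 0.06, and all 4 intervals included equality. Stat2, a subunit of the complex that binds the ISRE, had 323 and 393 counts (log2 ratio -0.10, interval -0.31 to 0.12). Irf9, its DNA-binding partner, had 240 and 308 counts (-0.02). Irf1, which carries much of the response to interferon gamma, had 518 and 745 counts (0.14, interval -0.02 to 0.31). Irf7, the factor that amplifies type I interferon production and is itself induced by it, had 54 and 84 counts (0.25, interval -0.25 to 0.78). None of the 4 factors stood apart from equality beyond its counting error.

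The sensors of foreign nucleic acid had the highest median of the role groups, 0.18, and no interval clear of equality. Of the 5, 4 were higher in AE-F2, where 6819 of all 13627 genes were higher. Ddx58 (RIG-I) had 283 and 422 counts and a log2 ratio of 0.19 (-0.03 to 0.42). Ifih1 (MDA5), the RNA helicase whose human orthologue is a type 1 diabetes risk gene, had 288 and 426 counts and a ratio of 0.18 (-0.04 to 0.40). Eif2ak2 (PKR), the kinase that stops translation on binding RNA, had 333 and 493 counts and a ratio of 0.18 (-0.02 to 0.39). These 3 ratios were nearly equal, and their intervals reached only just below equality. Dhx58 (LGP2), which tunes the other helicases, had 43 and 52 counts (-0.11, interval -0.72 to 0.51). Zbp1, a sensor of Z-form nucleic acid that can start necroptosis, had 6 and 17 counts and passed the minimum only through AE-F2. Its ratio of 1.05, or 2.07-fold, was the largest of the members, with an interval from 0.818-fold to 6.74-fold, and with a pseudocount of 5 counts it was under 2-fold.

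Among the effector families, the 3 member genes of the oligoadenylate synthetase family, which makes the signal that activates RNase L, were lower in AE-F2, with a median of -0.24. All 3 intervals included equality, and 6808 of all 13627 genes were lower. Oasl2 had 110 and 130 counts (-0.14), Oas1a 29 and 32 (-0.24) and Oas2 17 and 13 (-0.76, interval -1.93 to 0.36). Oas1a shares sequence with Oas1g, and the sum of both was 42 and 47 counts, a log2 ratio of -0.22 (-0.85 to 0.42). Oas1c, a relative outside the members, had 52 and 71 counts and a ratio of 0.06 (-0.47 to 0.61), named after its values were seen. The IFIT proteins bind viral RNA ends, and their genes lie close together on chromosome 19. Ifit1 had 46 and 73 counts (0.28, interval -0.27 to 0.85), Ifit2 35 and 45 (-0.02) and Ifit3 41 and 40 (-0.42, interval -1.08 to 0.25). Ifit3 and its near-identical neighbour Ifit3b had estimated counts that were not whole, as when reads are divided between copies. Their sum, 66 and 81 counts, was whole and gave -0.09 (-0.57 to 0.40). The part of read assignment in the value of Ifit3 was not tested.

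Of the other antiviral genes, 1 of 8 had an interval above equality (12.5%, against 13.4% of all genes). Rsad2 (viperin), which makes a nucleotide that terminates viral RNA chains, had 142 and 258 counts, or 8.71 and 12.1 CPM (the usual depth-scaled counts). Its log2 ratio was 0.48 (0.18 to 0.79), which is 1.39-fold (1.13 to 1.72). Cmpk2, the nucleotide kinase gene next to it with no protein-coding gene between, had 711 and 951 counts and a ratio of 0.04 (-0.10 to 0.18). The intervals of these neighbours overlapped only at 0.18. Bst2 (tetherin), which holds budding virus at the cell surface, had 45 counts in each library, a ratio of -0.38 (-1.01 to 0.25) given the deeper AE-F2 library. Xaf1, which promotes apoptosis, had 29 and 26 counts (-0.54, interval -1.36 to 0.28). The remaining ratios lay between -0.12 for Ifi27 (217 and 260 counts) and 0.15 for Rtp4 (40 and 58 counts), with Ifi44 (35 and 45) at -0.02 and Ifi35 (244 and 324) at 0.03, and these intervals all included equality. Mx1, below the minimum, had 8 and 10 counts.

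In the ISG15 system, all 4 intervals included equality. Trim25, the most abundant member and the one with the narrowest interval, had 1475 and 1981 counts and a log2 ratio of 0.04 (-0.05 to 0.14). Usp18, which removes ISG15 from proteins and dampens the type I receptor, had 321 and 406 counts (-0.04, interval -0.26 to 0.17). Both intervals lay inside 1.5-fold in either direction. The ADP-ribosyltransferase Parp14 had 383 and 477 counts (-0.07, interval -0.26 to 0.13) and its relative Parp9 359 and 436 (-0.10, interval -0.31 to 0.10). The Parp9 counts were not whole, whereas their sum with those of its partner Dtx3l was, at 767 and 1010 (0.01, interval -0.12 to 0.15). Isg15 itself, the ubiquitin-like modifier, had 10 and 8 counts, too few for a ratio.

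The guanylate binding proteins (GBP) and immunity-related GTPases (IRG), which attack vacuoles that hold pathogens and are induced most strongly by interferon gamma, held the other 2 members with an interval above equality. That is 2 of 7 (28.6%), against 13.4% of all genes. Gbp2 had 44 and 109 counts, or 2.70 and 5.13 CPM. Its log2 ratio of 0.92 (0.41 to 1.47), or 1.89-fold, was the furthest of the 34 from equality relative to its counting error. Of its cluster neighbours on chromosome 3, Gbp3 had 31 and 41 counts (0.02, interval -0.69 to 0.74) and Gbp7 180 and 223 (-0.07, interval -0.36 to 0.22). The interval of Gbp2 overlapped that of Gbp3 but not that of Gbp7. Irgm1, a regulator of the IRG family and of autophagy, had 244 and 379 counts and a ratio of 0.25 (0.02 to 0.49). Its interval took in equality when AE-F2 was thinned to the control-F2 depth and when trends with GC content and length were removed. The adjacent genes Igtp (177 and 241 counts, 0.06) and Irgm2 (206 and 267 counts, -0.01) did not stand apart from equality, nor did their sum, which at 383 and 508 counts gave 0.03 (-0.17 to 0.22). Iigp1, an effector of the family, had 39 and 59 counts (0.21, interval -0.39 to 0.84).

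**Figure D4:**
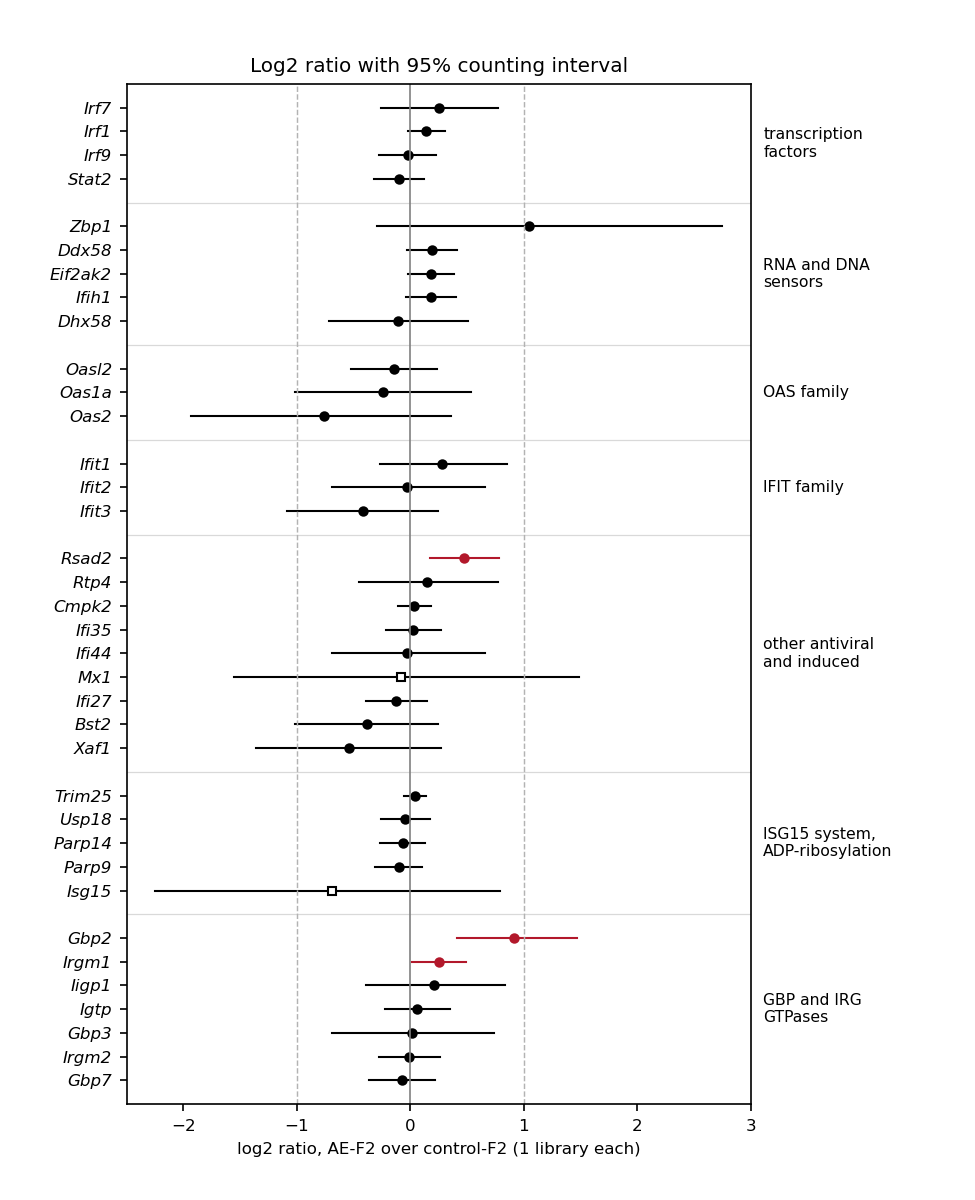
Log2 ratio of the AE-F2 over the control-F2 library for each member (points) with its 95% counting interval (bars), by role, where dashed lines mark 2-fold and open squares mark Isg15 and Mx1, which had under 10 counts on average. Red marks Gbp2, Rsad2 and Irgm1, whose intervals lie above equality, and every other interval crosses it.

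The members were split by the interferon that induces them most, as known in general. The 8 tied to interferon gamma (Irf1, the 3 Gbp genes and the 4 IRG genes) had a median log2 ratio of 0.10. Of these 8, 6 were higher (75%) and 2 had an interval above equality (25%). The other 26 had a median of -0.02, with 11 higher (42.3%) and 1 interval above equality (3.85%). Against the 13.4% of all genes, these are counts of a few genes, and the difference between the groups was not tested. Split by promoter, the 15 with an ISRE core that passed the minimum had a median of 0.06 and 3 of 15 intervals above equality (against 17.8% of all genes with an ISRE core), and the 10 with a promoter entry but no match had a median of 0.0019 and 0 such intervals (against 12.9% of all genes without one). Gbp2, with 1 match, and Gbp3, with 2 overlapping matches, both shown above, had ratios of 0.92 and 0.02, with intervals that overlapped.

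The rest of the pathway was read from lists of its ligands, receptors, kinases, inhibitors, inducers and further targets. Interferon transcripts were at or under the level of detection. Of 21 interferon genes, 20 were at 0 in control-F2 and 20 in AE-F2, where 3 counts, the most that a count of 0 allows, correspond to 0.184 and 0.141 CPM. The exceptions were Ifnz with 1.56 estimated counts in control-F2 and Ifng with 1 count in AE-F2. The 6 receptor genes were all higher in AE-F2, with a median of 0.14, where 6819 of all 13627 genes were higher. For 1 of the 6 (16.7%, against 13.4% of all genes) the interval lay above equality, and for 5 it included equality. The 1 was Ifnar2, a chain of the type I receptor, with 316 and 497 counts (0.27, interval 0.07 to 0.48). Its partner Ifnar1 had 539 and 774 (0.14, interval -0.02 to 0.30), and the gamma receptor genes Ifngr1 and Ifngr2 gave 0.12 and 0.13, with intervals that included equality. Ifnlr1, the chain particular to the type III receptor, had 19 and 30 counts (0.26, interval -0.60 to 1.19), and Il10rb gave 0.05.

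Of the kinases and STAT factors, Jak2, which serves the gamma receptor, had 628 and 964 counts (0.24, interval 0.09 to 0.38), and Stat3 had 2130 and 2952 (0.09, interval 0.01 to 0.17). Jak1 stood at -0.0018 and Tyk2 at -0.04, with intervals that included equality. The inhibitors differed in direction. Socs3, which blocks JAK kinases after cytokine signals such as interleukin 6, was lower in AE-F2 with 628 and 522 counts (-0.65, interval -0.82 to -0.48). Cish, a SOCS family gene induced by STAT5, was higher with 285 and 612 counts (0.72, interval 0.52 to 0.93). Socs1, the main inhibitor of interferon gamma signalling, had 12 and 14 counts (-0.17), and Ptpn2, Ptpn6, Irf2 and Pias1 lay between -0.0019 and 0.10, with all these intervals including equality.

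Of the 14 inducers of interferon that passed the minimum, 4 had an interval above equality (28.6%, against 13.4% of all genes) and none below, with a median of 0.03. The 4, named here after their values were seen, were Tlr9, the sensor of bacterial DNA, with 7 and 41 counts, Irf8, a factor of B cells and myeloid cells, with 34 and 153 (1.77, interval 1.24 to 2.37), Tmem173 (STING) with 17 and 54, and Irf5 with 23 and 52. All 4 averaged under 100 counts, as did 6 of the 14 inducers, and 17.5% of all genes in that range had such an interval. Tlr9 passed the minimum only through AE-F2. The abundant ones did not stand apart, with Traf3 at 0.05 (1143 and 1543 counts), Tbk1 at 0.17, Mavs at -0.13, Ticam1 at -0.09 and Irf3 at -0.15, and intervals that included equality. A further 48 interferon-induced genes outside the members passed the minimum. Of these 34 were higher (70.8%, against 6819 of all 13627 genes), with a median log2 ratio of 0.14. The interval lay above equality for 11 (22.9%, against the 13.4% of all genes) and below it for 3 (6.25%, against 13.4%). The 48 hold genes under and over an average of 100 counts. Among all genes under it, 61.5% were higher and 17.5% had an interval above equality, and at 100 or more 46.7% and 12.2%. The most abundant of the 48, Lgals3bp, stood at -0.02 (6555 and 8449 counts), and Ly6e at 0.17 (0.10 to 0.24). Znfx1 at -0.15 (2011 and 2358 counts), Tor3a at -0.15 (1337 and 1569) and Adar at -0.19 (1297 and 1482) were the 3 with intervals below equality. The largest ratios among those with an average of 100 or more counts were those of Ifi203 (0.54, 124 and 236 counts), Ly6a (0.53, 238 and 447), Ddx60 (0.45, 100 and 179) and Slfn5 (0.45, 238 and 424), with intervals above equality. Sp110 (7 and 38 counts), Slfn2 (17 and 68), Slfn8 (6 and 18) and Sp100 (49 and 129), named after their values were seen, were at least 2-fold higher, the interval of Slfn8 including equality. All 4 averaged under 100 counts, where 400 of 3087 genes were at least 2-fold higher. Of these 4, Sp110 and Slfn8 passed the minimum only through AE-F2. As the 4 were picked by their values, they cannot show whether high ratios were more frequent outside the members. Over the whole lists, the interval lay above equality for 22.9% of the 48 genes and 8.82% of the members, a difference that was not tested.

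Marker genes of other cells differed between these libraries, and their part in the ratios above was not tested. All 9 B cell markers averaging 10 or more counts, most of which passed that minimum only through AE-F2, were higher there, and the summed level of the 10 markers was 3.93 CPM in control-F2 and 285 in AE-F2, which is 71.9-fold (56.7 to 94.3). Ighm, with 51 and 5376 counts, made up most of that sum, which was 64 and 6046 counts. Cr2, Blk and Ighd were at 0 in control-F2. The 11 T and NK cell markers summed to 13 and 170 counts, 9.69-fold higher in AE-F2 after scaling (5.71 to 19.2), and Cd3e, Cd3d, Cd3g, Trbc2, Ncr1 and Klrb1c were at 0 in control-F2. Of this list 3 passed the minimum, and Cd8a, which did not, had 5 and 11 counts with an interval that included equality. Fibroblast markers, 6 of 6 higher against 6819 of all 13627 genes, summed to 44.7 and 92.9 CPM, which is 2.08-fold. The 10 macrophage markers summed to 83.6 and 99.0 CPM, but only Lyz2 (112 and 571 counts) had an interval above equality and C1qa (592 and 647) had one below. Dendritic cell markers summed to 11.7 and 14.4 CPM, with Xcr1 and Ccr9 at 0 in control-F2. Zbtb46 (114 and 147 counts) made up most of that sum in control-F2. Flt3, named after its values were seen, had 2 and 22 counts and passed the minimum only through AE-F2.

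For the other lists, endothelial markers summed to 592 and 587 CPM, acinar markers to 1551 and 1158, and duct markers to 286 and 334. Of the acinar markers 6 of 6 had an interval below equality, against 13.4% of all genes. The duct sum was mostly Krt7 (4020 and 6195 counts), and Krt19 (11 and 35) and Muc1 (23 and 63) also had intervals above equality. The β-cell list stood at a summed ratio of 1.00, a sum made up mostly of Ins1, Ins2 and Iapp counts. Of its 6 markers 4 had an interval below equality and 2 above. Among all genes averaging 100 or more counts, 16.1% lay below and 12.2% above. The α-cell list stood at 1.35, led by Gcg (261338 and 467676 counts).

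**Figure D5:**
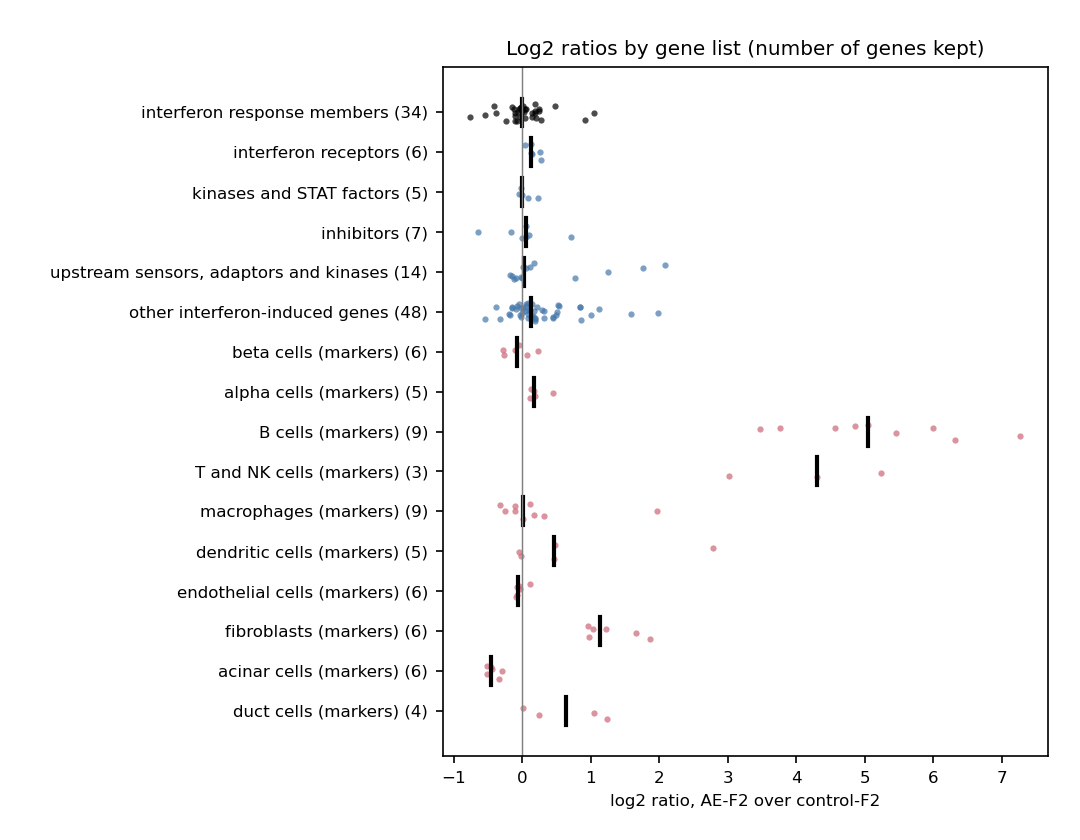
Log2 ratios of the AE-F2 over the control-F2 library for genes averaging 10 or more counts (points) in the members (black), the other lists of the interferon pathway (blue) and the cell type marker lists (red), with the median of each list as a bar and the number of genes in brackets. The members lie around 0. The B cell and T and NK cell markers shown lie above 3, and most of them passed the minimum only through the AE-F2 library. Of the 11 T and NK cell markers, 8 did not pass it and are not shown.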

How the data were processed

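Poly(A) RNA of islets was sequenced on an Illumina instrument. Reads were filtered and aligned by the authors (with HISAT2 in the methods, while the submitters' processing notes name Bowtie2, RSEM and DESeq2), and the deposited values are estimated counts per gene, scaled neither for depth nor for length. The genome build, annotation and strand setting are not given in the sources used here. In control-F2 8.56% and in AE-F2 9.28% of the values were not whole. Counts were rounded to whole numbers. The libraries were scaled with TMM factors (edgeR 4.0.16, R 4.3.3) over the 13627 genes averaging 10 or more counts, and log2 ratios were taken after adding 0.5 counts. Intervals are 95% Clopper-Pearson intervals (scipy 1.17.1) on the part of a gene's counts found in AE-F2. No model was fitted to 1 library per group. On libraries simulated with counting error only, 100 of 100 genes made 3-fold higher and 97 of 100 made 3-fold lower were found past 2-fold. Of the intervals 95.6% held the true ratio, a share set in advance near 95%, since the simulation draws the same counting error as the interval assumes. The simulation holds no differences between animals and no PCR copies. The rule for the members uses no measured value, but the members, lists and settings were chosen with earlier results of these data known. Named genes are the 37 members, lists of up to 7 genes in full, the 5 most abundant genes and the 5 with the largest ratios at an average of 100 or more counts of longer lists, and up to 4 markers of a cell type with those at 0. Not all of them are printed, and the value of 1 gene is not reported here. Of 21899 genes, 21806 had a symbol. The per-length level used the median length of a gene's basic protein-coding transcripts. Alternatives were other scalings, minimum counts, pseudocount, rounding, thinning, fold threshold and removal of GC and length trends.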

Additional observations from a re-analysis of the deposited data

How the results depend on the processing

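Over 10 other settings none of the 34 members left its counting interval, in 312 values, and the 4 whose ratio changed sign (Gbp3, Ifi44, Irf9 and Irgm2) all had ratios within 0.03 of 0. The settings reuse the counts of the same libraries, so they do not measure the spread between animals. A member has no value in a setting where it failed the minimum. The median log2 ratio of the members ran from -0.02 with a pseudocount of 5 to 0.05 with an average of 50 or more counts. Scaling with DESeq2 size factors, total counts, or total counts without the 10 most abundant genes moved all ratios by at most 0.02. With an average of 100 or more counts required, 11 of 19 members were higher in AE-F2, against 17 of 34. The members at least 2-fold higher numbered 0 with a minimum average of 50 or 100 counts and with AE-F2 thinned to the control-F2 total, where Zbp1 no longer passed the minimum, and 0 with a pseudocount of 5. At a threshold of 1.5-fold, 2 were higher (Gbp2 and Zbp1) and 1 was lower (Oas2), against 6.04% and 2.19% of all genes. The intervals above equality numbered 2 or 3: Irgm1 was lost with thinning and with GC and length trends removed, and Gbp2 had too few counts for the minimum of 100. No paired analysis was possible because each group had 1 library and no test was made. For the same reason no replicate could be left out. Depth limits the 17 members with a mean under 100 counts most.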

Other observations

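Among all genes, members included, ratios were slightly higher where the promoter held the ISRE core. The 398 genes averaging 10 or more counts with a match had a median log2 ratio of 0.05, with 17.8% of counting intervals above equality and 11.3% below, and the 10239 without a match had a median of -0.0022, with 12.9% above and 13.5% below. Genes with an ISRE core match also had lower counts, with a median mean count of 321 against 427.5 without. Among all genes the median log2 ratio was 0.15 under an average of 100 counts and -0.01 at 100 or more. The part of count level in the ISRE values was not tested. For the GAS consensus the medians were 0.0074 with a match (882 genes) and -0.0014 without (9755 genes). Genes are not replicates, no test was made, and the B cell markers that differ between the libraries are among the genes compared, and their part in these values was not tested.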
